A study of Mus musculus with 4 samples.

Results

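The genes described here were 3 sine oculis homeobox genes (*Six2*, *Six4* and *Six5*), 4 *Eya* genes (*Eya1* to *Eya4*) and both *Dach* genes (*Dach1* and *Dach2*). They were measured by every probe set annotated to exactly 1 of these symbols, which gave 23 probe sets of 45037 on the array (6 for *Six2*, *Six4* and *Six5*, 12 for the *Eya* and 5 for the *Dach* genes) and 9 genes of 18193. Affymetrix mouse arrays measured RNA of wild-type embryos and of *Hand2* mutant embryos (*Hand2 CAT/+; Wnt1-Cre*, named *Hand2*NC), 1 array for each genotype at E11.5 and at E12.5, all on a mixed C57BL/6J x ICR background. In *Hand2*NC, Cre recombinase made under the *Wnt1* promoter switches on a *Hand2* transgene in the neural crest lineage, which gives rise to much of the facial skeleton; the controls were wild-type littermates. By the labels, RNA came from the whole body at E11.5 and from the head at E12.5, so stage and tissue cannot be told apart; a figure legend of the study names heads at the earlier stage too, and the labels were followed. The RNA of several embryos was pooled before each hybridisation, so that no difference below has a replicate check or a p-value, and in a pool of whole tissue fewer cells of a type and less RNA per cell cannot be told apart.

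Sine oculis homeobox genes encode homeodomain transcription factors that bind DNA. Eya proteins carry a transactivation domain and a phosphatase domain, have no DNA binding of their own and reach their targets through these partners, whereas Dach proteins, relatives of Ski, act mainly as corepressors with them. Together with Pax factors, which often lie upstream, they form a network first described in the fly eye and used again in mammals in cranial placodes, the inner ear, skeletal muscle precursors, the kidney and the craniofacial mesenchyme.

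The transgenic factor, Hand2, is a basic helix-loop-helix protein, and such proteins bind the E-box, CANNTG. To show the stretch next to the start of each member, the 250 bases before the annotated start were taken from RefSeq (GRCm38.p6), which held 10 such windows for 7 of the 9 genes. The motif CANNTG, which reads the same on both strands, was present in 3 of the 10 windows, in 1 each of *Eya3*, *Eya4* and *Dach2*, whereas 66.2% of all 32851 windows held it. It was in no window of *Six2*, *Six4*, *Six5* or *Dach1*. The median GC content was 62.4% in the windows of the members and 52.4% in all windows. The windows of *Six2*, *Six4* and *Dach1* are printed because the brightest probe sets of these genes differed most between arrays, and that of *Eya3* because it holds a match. They are chr17:85688255-85688504 for *Six2*, chr12:73113246-73113495 for *Six4* (the window nearer to the gene body) and chr14:98169766-98170015 for *Dach1*, all on the minus strand, and chr4:132638796-132639045 for *Eya3* on the plus strand. Each runs 5′ to 3′ towards the start of the gene, and capitals mark the E-box.
Six2: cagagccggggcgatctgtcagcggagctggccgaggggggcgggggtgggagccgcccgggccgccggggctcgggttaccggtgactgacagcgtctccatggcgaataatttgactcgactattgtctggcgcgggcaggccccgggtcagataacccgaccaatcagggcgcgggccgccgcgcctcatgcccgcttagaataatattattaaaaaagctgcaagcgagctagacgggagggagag
Six4: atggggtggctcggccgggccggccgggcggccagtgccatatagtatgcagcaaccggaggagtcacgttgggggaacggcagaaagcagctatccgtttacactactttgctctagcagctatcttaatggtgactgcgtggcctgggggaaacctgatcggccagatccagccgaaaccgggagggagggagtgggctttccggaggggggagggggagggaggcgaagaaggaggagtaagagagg
Eya3: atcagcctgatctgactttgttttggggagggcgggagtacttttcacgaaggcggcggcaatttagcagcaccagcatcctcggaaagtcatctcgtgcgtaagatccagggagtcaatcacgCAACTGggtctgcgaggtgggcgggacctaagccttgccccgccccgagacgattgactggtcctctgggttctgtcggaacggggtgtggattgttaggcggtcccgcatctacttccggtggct
Dach1: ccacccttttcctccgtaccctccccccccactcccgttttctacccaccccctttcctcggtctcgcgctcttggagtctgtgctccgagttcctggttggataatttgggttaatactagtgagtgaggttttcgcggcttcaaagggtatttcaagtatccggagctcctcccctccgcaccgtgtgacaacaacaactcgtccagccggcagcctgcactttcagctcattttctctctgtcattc
A match is a description of the letters and not a binding site, and its absence says only that these letters are not in these windows.

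The values are MAS5 signals, each array scaled to a trimmed mean of 500. Levels of different probe sets are not comparable, because each probe set has its own affinity, and a summed marker signal leans on its brightest probe sets. A difference is given as log2, beside its local spread, the robust standard deviation of the same difference over the 500 probe sets nearest in signal, which holds measurement error and real differences together. A probe set was kept in a pair of arrays when its brighter array reached the median signal of that array, which was 97.2 to 106 on the 4 arrays. The local spread of a kept probe set was taken over kept probe sets only, and that of a probe set below the filter over all probe sets. The same 16 member probe sets were kept in every pair, and the same 7 lay below in every pair. The targeted gene was read first: a *Hand2* probe set (1422221_at) gave 67.1 and 314 at E11.5 and 33.4 and 706 at E12.5 in wild-type and *Hand2*NC, while another (1436041_at) gave 1214 and 1244, then 592 and 839. Heart markers lay at or above the array median for 6 of 6 genes on both E11.5 arrays and for 1 of 6 on both E12.5 arrays, and liver markers for 6 of 6 and 2 of 6, as RNA of the whole body and of the head would give.

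**Figure D1:**
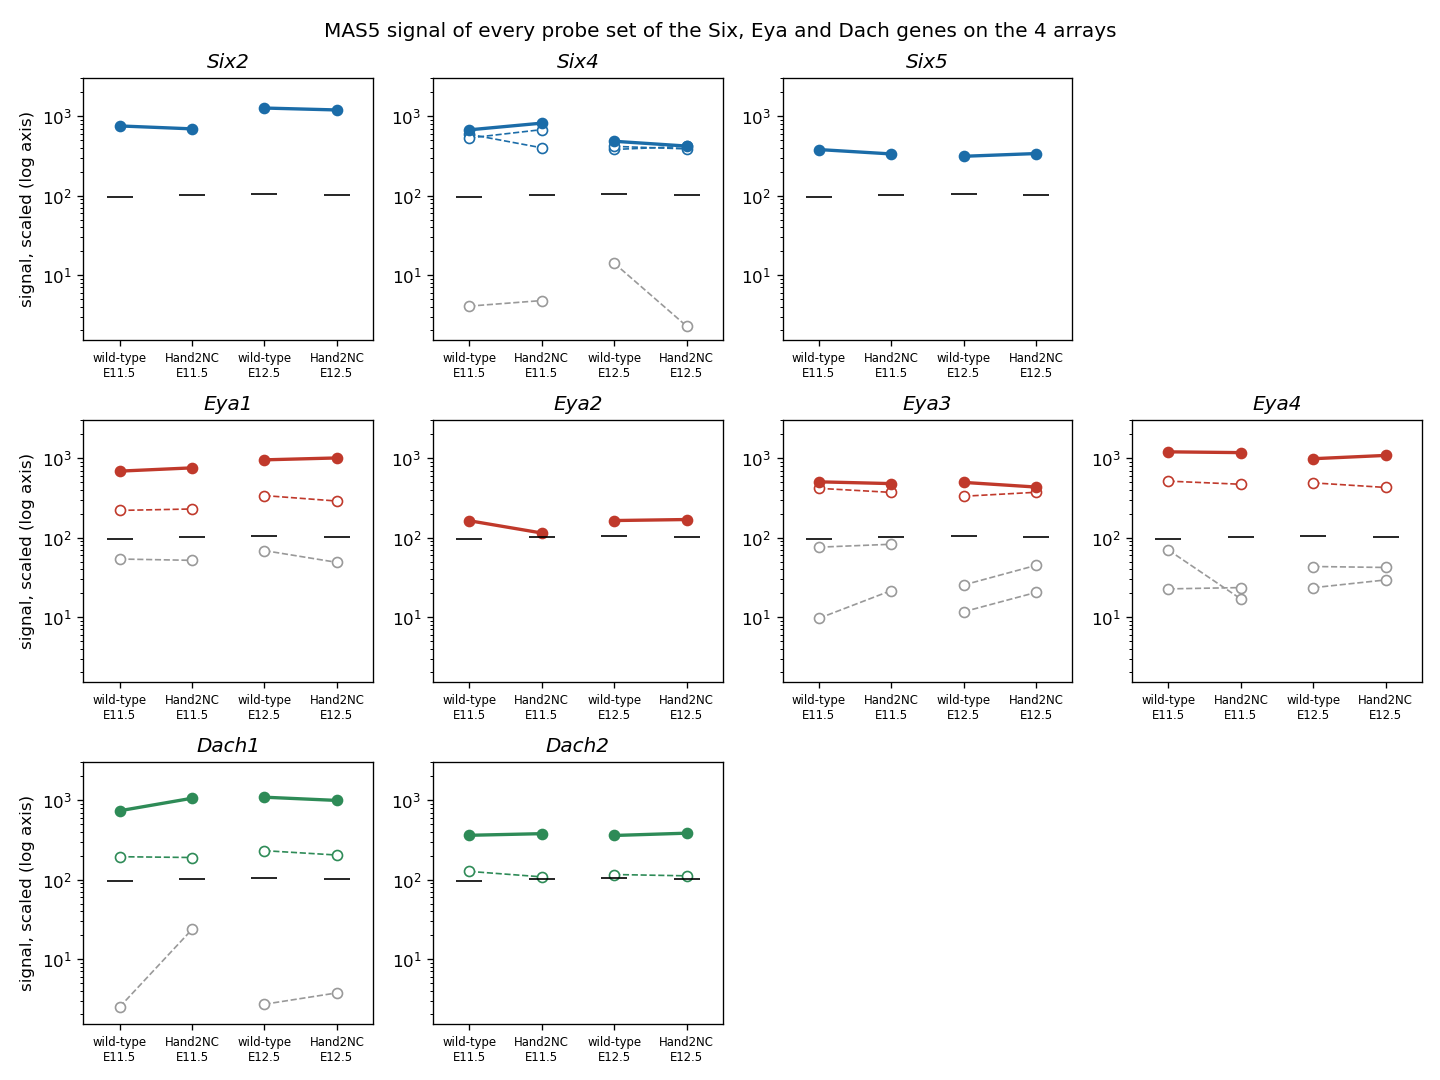
Scaled MAS5 signal (log axis) of all 23 member probe sets on the 4 arrays, 1 panel per gene; filled points are the brightest probe set of a gene, open coloured points its other kept probe sets, grey points probe sets below the filter, and short black bars the array medians. *Six2* and the kept *Eya1* probe sets sat higher on both E12.5 arrays, the brightest *Six4* probe set sat lower there, and 7 probe sets lay under the median of all arrays.

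*Six2*, which keeps kidney progenitors undifferentiated and is also made in craniofacial mesenchyme, had the widest stage difference of the brightest probe sets in wild-type. Its only probe set (1427436_at) gave 756 in wild-type and 694 in *Hand2*NC at E11.5, and 1270 and 1201 at E12.5. Both E12.5 heads thus lay above both E11.5 bodies, by 1.68-fold in wild-type (log2 0.75, local spread 0.36) and by 1.73-fold in *Hand2*NC (0.79, spread 0.30). Between genotypes *Six2* was within its local spread at both stages, at -0.12 (spread 0.17) and -0.08 (spread 0.13). The nephrogenic markers, summed, read 2544 and 2870 at E11.5 and 3002 and 3003 at E12.5 in wild-type and *Hand2*NC. At or above the array median were 7 of 9 genes at E11.5 and 5 of 9 at E12.5. Single genes of the list went both ways between stages. Of 7 kept in wild-type, 1 was at least 2-fold higher in the head and 3 lower, with a median of 0.12. Of 7 kept in *Hand2*NC, 0 were higher and 2 lower, with a median of -0.68. The head mesenchyme markers summed to 2781 and 2614 at E11.5 and to 3352 and 3132 at E12.5, with 4 of 6 genes at or above the median on every array except the wild-type E12.5 one, which had 5. The part of either tissue in the *Six2* difference was not tested.

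*Six4*, which acts in muscle and placode development, was read by 4 probe sets that did not give the same picture. The brightest (1456862_at) gave 675 in wild-type and 819 in *Hand2*NC at E11.5, and 484 and 421 at E12.5. A second one from the same source sequence (1439753_x_at) gave 533 and 678, then 418 and 388. The order of the arrays was the same in both, with *Hand2*NC E11.5 the highest and *Hand2*NC E12.5 the lowest. The third probe set, made from another sequence (1425767_a_at), gave 593 and 401 at E11.5 and 382 and 418 at E12.5, so that the wild-type E11.5 array stood above the other 3. The genotype difference at E11.5 was accordingly 0.28 (spread 0.16) and 0.35 (spread 0.17) on the first pair of probe sets and -0.57 (spread 0.18) on the third. At E12.5 the same 3 probe sets were at -0.20 (spread 0.20), -0.10 (spread 0.21) and 0.13 (spread 0.21). The study looked at *Six4* among transcription factors that it followed up as dysregulated in E11.5 embryos. It reported no obvious difference between heads of wild-type and *Hand2*NC. That is a reading of heads given apart from the arrays, whereas the E11.5 arrays are labelled whole body. No kept *Six4* probe set reached 2-fold between genotypes on these arrays.

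The stage difference of *Six4* was negative in wild-type on all 3, at -0.48 (spread 0.41), -0.35 (spread 0.37) and -0.64 (spread 0.38). In *Hand2*NC it was -0.96 (spread 0.35), -0.80 (spread 0.34) and 0.06 (spread 0.37). The brightest probe set was thus 1.94-fold lower in the *Hand2*NC head than in the *Hand2*NC body, just inside the 2-fold cutoff, and it passed that cutoff with quantile normalisation or a loess fit. The fourth *Six4* probe set (1427701_a_at) stayed at 4.05, 4.76, 14.1 and 2.28 on the wild-type and *Hand2*NC arrays at E11.5 and then at E12.5, far under the array medians, with local spreads of 1.85 to 2.99. With the mean over all 4 probe sets the stage difference in wild-type turned to 0.08. The skeletal muscle markers summed to 5503 and 6567 at E11.5 and to 3588 and 3405 at E12.5, lower in the heads and higher in *Hand2*NC than in wild-type at E11.5. The median of the list between genotypes was 0.28 at E11.5 and -0.01 at E12.5. Its kept genes went both ways at E12.5, from *Myf5* at 1.13 (spread 0.37) to *Des* at -0.51 (spread 0.32). The part of muscle in the *Six4* differences was not tested.

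*Six5*, which lies next to the myotonic dystrophy kinase gene *Dmpk* and is studied in that disease, was nearly level. Its probe set (1427560_at) gave 381 and 335 at E11.5 and 313 and 339 at E12.5 in wild-type and *Hand2*NC. The 4 differences were -0.18 (spread 0.23) and 0.11 (spread 0.24) between genotypes and -0.28 (spread 0.43) and 0.02 (spread 0.37) between stages, all within the local spread. Its neighbour *Dmpk* (1434944_at) gave 136, 159, 131 and 141 in the same order, also within the local spread in all 4 pairs. The other *Dmpk* probe set lay between 5.15 and 6.89.

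*Eya1*, needed for the ear, kidney and cranial ganglia, was higher in the heads on its kept probe sets. The brightest probe set (1457424_at) gave 689 and 757 at E11.5 and 956 and 1010 at E12.5 in wild-type and *Hand2*NC, and another (1443117_at) gave 220 and 230, then 339 and 289. On both, each E12.5 array lay above each E11.5 array. The stage difference of the brightest was 0.47 (spread 0.32) in wild-type and 0.42 (spread 0.31) in *Hand2*NC, and that of the other was 0.62 (spread 0.44) and 0.33 (spread 0.47). Between genotypes the brightest was within its spread at 0.14 and 0.08, whereas the other was at 0.06 (spread 0.27) and, at E12.5, at -0.23 (spread 0.23), at the very edge. The third (1421727_at) lay under the medians at 53.8, 51.8, 68.7 and 48.8. The otic and placode markers, among tissues that make *Eya1*, summed to 4178 and 4151 at E11.5 and to 5561 and 5783 at E12.5, with 5 of 6 genes at or above the median on every array; their part in the *Eya1* difference was not tested.

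*Eya2*, made in placodes and muscle precursors, stood out on 1 array. Its probe set (1424127_at) gave 163 in wild-type and 114 in *Hand2*NC at E11.5 and 164 and 169 at E12.5. The *Hand2*NC E11.5 array alone was low, close to its median of 101, and the other 3 lay within a narrow range. The genotype difference was -0.51 (spread 0.32) at E11.5 and 0.04 (spread 0.29) at E12.5, and the stage difference was 0.01 (spread 0.50) in wild-type and 0.56 (spread 0.45) in *Hand2*NC. The low array enters both wider values.

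*Eya3*, the most broadly made of the family, differed little on its kept probe sets. The brightest (1435443_at) gave 505 and 480 at E11.5 and 497 and 434 at E12.5, and another (1420933_a_at) gave 418 and 372, then 332 and 373. At E12.5 the brightest was at -0.19 between genotypes, just past its spread of 0.19, and the other at 0.17 (spread 0.21), in the opposite direction. The stage differences were -0.02 and -0.14 on the brightest and -0.33 and 0.00 on the other in wild-type and *Hand2*NC, all within the local spread. The remaining pair lay under the medians, between 25.3 and 82.5 (1425989_a_at) and between 9.62 and 21.6 (1458961_at).

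*Eya4*, known from hereditary deafness and heart muscle disease, was also close to level. The brightest probe set (1442542_at) gave 1205 and 1178 at E11.5 and 988 and 1087 at E12.5, with both heads under both bodies. Its stage difference was -0.29 (spread 0.37) in wild-type and -0.12 (spread 0.33) in *Hand2*NC, and its genotype difference -0.03 (spread 0.12) and 0.14 (spread 0.15). The next (1456665_at) gave 515, 470, 490 and 429 and was within its spread in all 4 pairs. A dim probe set (1456647_a_at) read 69.7 in the wild-type and 16.9 in the *Hand2*NC body and 43.3 and 42.1 in the heads. It was the member below the filter that was more than 2-fold lower in *Hand2*NC at E11.5, and neither brighter *Eya4* probe set shared this. The last (1432461_at) lay between 22.6 and 29.3.

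*Dach1*, a corepressor made in limb, brain and eye, had, with *Eya2* close behind, the widest genotype difference of any brightest member probe set. That probe set (1433743_at) gave 737 in wild-type and 1060 in *Hand2*NC at E11.5 and 1093 and 995 at E12.5. The wild-type E11.5 array was low and the other 3 were within a narrow range of each other. The genotype difference at E11.5 was 1.44-fold (0.52, spread 0.16), and at E12.5 it was -0.14 (spread 0.15). The stage difference was 0.57 (spread 0.34) in wild-type and -0.09 (spread 0.33) in *Hand2*NC. Another kept *Dach1* probe set (1420695_at) did not share the low array, with 195 and 190 at E11.5 and 232 and 204 at E12.5, a genotype difference of -0.03 (spread 0.26) at E11.5. The third (1420694_a_at) read 2.48 and 23.6, then 2.69 and 3.74, all far below the array medians, so its log2 difference of 3.25 at E11.5 (spread 2.57) is one between dim values. With the mean over the 3 probe sets the E11.5 value became 1.25. The limb markers summed to 3679 and 3866 at E11.5 and to 3876 and 4024 at E12.5. Of the 6 limb genes, 5 were at or above the array median on both E11.5 arrays and 3 on both E12.5 arrays. In each genotype 0 of 5 kept limb genes were at least 2-fold higher in the head and 2 were lower. The forebrain markers summed to 2532 and 2417, then 5635 and 5051. The part of limb and forebrain in the *Dach1* values was not tested.

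*Dach2*, the X-linked relative of *Dach1*, was level. The brighter probe set (1449823_at) gave 362 and 380 at E11.5 and 360 and 385 at E12.5, and the other (1458012_at) gave 127 and 108, then 116 and 112. None of its 8 differences passed the local spread, and on the brighter probe set they ran from -0.01 to 0.10. The *Hand2*NC E12.5 pool had almost no signal from the Y-linked gene *Eif2s3y* (14.4, against 840 to 956 on the other arrays). It had more *Xist* than the wild-type head, at 16187 against 8988.5 on the brightest probe set (1436936_s_at). Another *Xist* probe set (1427262_at) gave 3936 against 1809. *Dach2* at E12.5 was at 0.10 (spread 0.21) beside those differences, whose part in it was not tested. The same *Hand2*NC E12.5 array enters every genotype difference at E12.5 and every stage difference in *Hand2*NC. There the *Eif2s3y* and *Xist* differences come together with genotype or stage, and their parts cannot be told apart.

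The comparison of *Hand2*NC with wild-type asked whether the network differed when *Hand2* was made throughout the neural crest. At E11.5, 0 of the 16 kept member probe sets were at least 2-fold higher and 0 lower; of all 23394 kept probe sets 0.440% were higher and 0.346% lower, so that a count of 0 among 16 is near the background. Beyond the local spread, 3 were higher (both *Six4* probe sets from the shared sequence, and *Dach1*) and 2 lower (*Six4* 1425767_a_at and *Eya2*), beside 17.9% and 15.3% of all. The median over the 16 was -0.05, against 0.00 over all probe sets, and 13 lay within 0.5 of no difference, beside 92.9% of all. By family, the medians were -0.12 for the sine oculis homeobox genes, -0.07 for *Eya* and 0.02 for *Dach*.

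At E12.5, 0 were at least 2-fold higher and 0 lower, beside 0.385% and 0.522% of all 23370. Beyond the local spread 0 were higher and 3 lower (*Six4* 1456862_at, *Eya1* 1443117_at and *Eya3* 1435443_at, each at its edge), beside 14.8% and 18.1% of all. All 16 lay within 0.5 of no difference, beside 92.8% of all, and the median was -0.07 against -0.01 over all. *Hand2* itself on the same pair of arrays was higher by 0.50 (spread 0.17) on its brightest probe set (1436041_at) and by 4.40 (spread 0.34) on 1422221_at, whose wild-type value lay under the array median. The genotype difference had the same direction at both stages for 7 of the 16 (43.8%), against 48.1% of 22243 probe sets kept in both pairs, which use different arrays. At E12.5 genotype also goes together with the near absence of *Eif2s3y* signal given under *Dach2*, and these cannot be told apart.

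**Figure D2:**
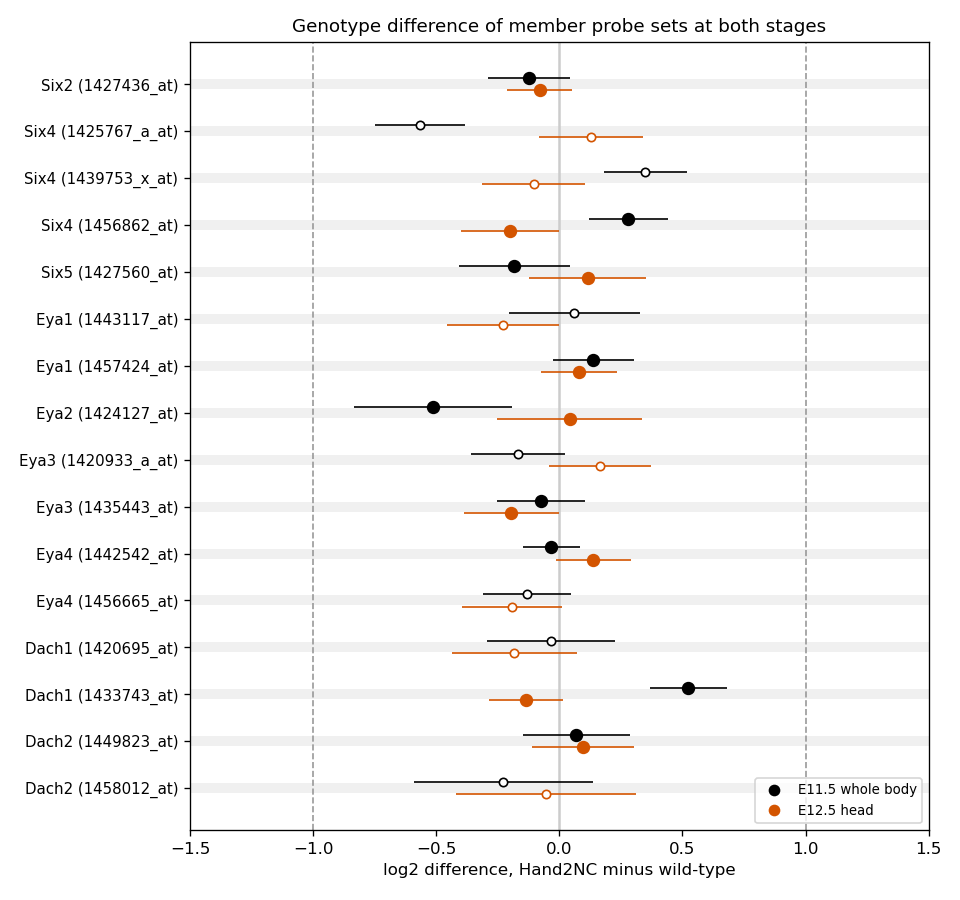
Log2 difference of *Hand2*NC from wild-type (horizontal axis) for the 16 kept member probe sets, at E11.5 in black and E12.5 in orange; filled points are the brightest of a gene, lines the local spread on either side, and dashed lines the 2-fold cutoff. No point reaches the cutoff, and *Six4* lies on both sides of 0 at E11.5.

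The comparison of E12.5 heads with E11.5 bodies gave wider differences on the whole array. In wild-type, 0 member probe sets were at least 2-fold higher and 0 lower, beside 4.76% and 2.36% of all 23815. Beyond the local spread 4 were higher (*Six2*, both kept *Eya1* probe sets and *Dach1*) and 2 lower (*Six4* 1456862_at and 1425767_a_at), beside 19.6% and 13.8% of all. In *Hand2*NC, 0 were at least 2-fold higher and 0 lower, beside 2.65% and 2.25% of all 23700. There 3 were higher beyond the local spread (*Six2*, the brightest *Eya1* and *Eya2*) and 2 lower (*Six4* 1456862_at and 1439753_x_at), beside 17.5% and 15.0% of all. The medians over the 16 were -0.05 in wild-type and 0.02 in *Hand2*NC, against 0.03 and 0.02 over all probe sets; with quantile normalisation the members' medians were -0.15 and -0.03, with loess -0.15 and -0.04, and with median centring -0.17 and 0.01, and the second was -0.10 with the stricter filter.

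Set in order over the 4 arrays, 5 of the 16 had both heads above both bodies (*Six2*, the 2 *Eya1* probe sets, *Eya2* and *Dach1* 1420695_at), beside 35.9% of 22994 probe sets. A further 3 had both heads below both bodies (*Six4* 1456862_at and 1439753_x_at, and the brightest *Eya4*), beside 30.4%, and 8 overlapped. The *Eya2* probe set is among the 5 by the narrow step from 163 to 164. The stage difference had the same direction in both genotypes for 10 of the 16 (62.5%), against 75.1% of all.

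**Figure D3:**
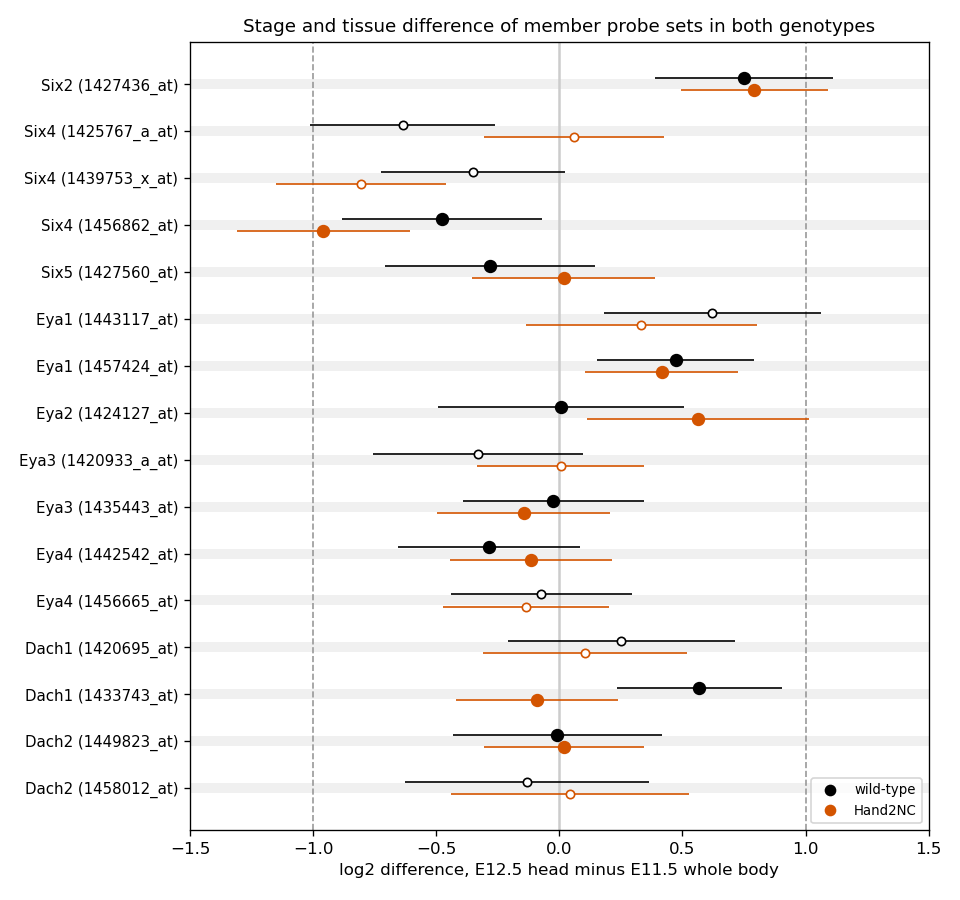
Log2 difference of E12.5 head from E11.5 whole body (horizontal axis) for the 16 kept member probe sets, in wild-type in black and *Hand2*NC in orange; symbols, spread lines and cutoff lines are as in the genotype plot. *Six2* and the brightest *Eya1* lie right of 0 beyond their spread in both genotypes, the brightest *Six4* left of 0, and *Dach1* 1433743_at right of 0 in wild-type only.

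Other genes of the network were taken from 4 lists. Of the other sine oculis homeobox genes, both measured ones were brighter in the heads. *Six3*, the eye and forebrain regulator next to *Six2* on chromosome 17, gave 145 and 149 at E11.5 and 625 and 468 at E12.5 on its brightest probe set (1427523_at), a stage difference of 2.11 (spread 0.41) in wild-type and 1.66 (spread 0.45) in *Hand2*NC. The other *Six3* probe sets lay below the filter. *Six6*, which acts in the retina and pituitary, gave 55.1, 74.3, 182 and 136, with 1.73 (spread 0.63) in wild-type and 0.87 (spread 0.58) in *Hand2*NC. Both of its E11.5 values lay under the array medians, so that it was kept between stages through the heads. The forebrain markers had 5 of 5 genes at or above the median on every array and a summed signal more than 2-fold higher in the heads. Of the single genes, 2 of 5 were at least 2-fold higher in the head in wild-type and 3 of 5 in *Hand2*NC, with 0 lower. The part of forebrain in these differences was not tested. At E12.5 *Six3* and *Six6* were both at -0.42 between genotypes (spreads 0.19 and 0.31).

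Of the *Pax* probe sets, 2 of 10 kept were at least 2-fold higher in the head in wild-type and 1 of 9 in *Hand2*NC, with 0 lower in either. The shares over all kept probe sets were 4.76% higher and 2.36% lower in wild-type, and 2.65% and 2.25% in *Hand2*NC. *Pax6*, upstream in the eye, gave 547 and 540 at E11.5 and 1220 and 1148 at E12.5 (1419271_at), or 1.16 (spread 0.33) and 1.09 (spread 0.32) in wild-type and *Hand2*NC. *Pax7*, made in muscle precursors, neural crest and the dorsal brain, gave 256 and 353, then 557 and 395 (1444596_at). Its stage difference was 1.12 (spread 0.42) in wild-type and 0.16 (spread 0.35) in *Hand2*NC, and its genotype difference 0.47 (spread 0.21) at E11.5 and -0.49 (spread 0.20) at E12.5. The other *Pax7* probe set (1452510_at) gave 106 and 78.8, then 125 and 81.3, with *Hand2*NC lower at both stages. Between genotypes 0 *Pax* probe sets passed 2-fold at either stage. Of all kept probe sets 0.440% passed it upwards and 0.346% downwards at E11.5, and 0.385% and 0.522% at E12.5. Beyond the local spread 1 of 9 *Pax* probe sets was higher and 0 lower at E11.5. At E12.5 0 of 10 were higher and 5 lower, with a median of -0.26. Over all probe sets 17.9% were higher and 15.3% lower beyond the local spread at E11.5, and 14.8% and 18.1% at E12.5, with a median of -0.01 at E12.5.

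Of the cofactors, 1 of 21 kept in wild-type and 1 of 20 in *Hand2*NC passed 2-fold between stages. It was *Sobp*, which acts in the inner ear, at 296 and 240 at E11.5 and 718 and 570 at E12.5 (1427542_at), or 1.28 (spread 0.38) and 1.25 (spread 0.34). Of all kept probe sets 4.76% were at least 2-fold higher and 2.36% lower in wild-type, and 2.65% and 2.25% in *Hand2*NC. *Ski*, *Skil*, the *Tle* corepressors, *Sin3a*, *Hdac3* and *Crebbp* all stayed under 2-fold in every pair on their brightest probe set. Between genotypes at E11.5, 8 of 21 kept cofactor probe sets were higher beyond the local spread and 2 lower, beside 17.9% and 15.3% of all. At E12.5, 0 of 20 were higher and 4 lower, beside 14.8% and 18.1% of all.

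Of the genes known as targets of this network, *Myf5*, which commits cells to muscle, was the 1 past 2-fold between genotypes on a kept probe set. It was higher in *Hand2*NC at both stages. Its probe set (1420757_at) gave 192 and 421 at E11.5 and 81.2 and 177 at E12.5, or 1.13 (spread 0.22) and 1.13 (spread 0.37). Its wild-type E12.5 value lay under the array median of 106, so that it was kept at E12.5 through the *Hand2*NC array. It was lower in the head by -1.24 (spread 0.52) and -1.25 (spread 0.42) in wild-type and *Hand2*NC. *Gata3* gave 196 and 151, then 403 and 297 (1448886_at), which was 1.04 (spread 0.44) between stages in wild-type and 0.98 (spread 0.43) in *Hand2*NC. Of 14 kept target probe sets 1 was at least 2-fold higher and 0 lower between genotypes at each stage. Between stages 1 of 13 was higher and 1 lower in wild-type, and 0 of 14 higher and 1 lower in *Hand2*NC. Over all kept probe sets the genotype shares were 0.440% higher and 0.346% lower at E11.5, and 0.385% and 0.522% at E12.5. The stage shares were 4.76% and 2.36% in wild-type, and 2.65% and 2.25% in *Hand2*NC. The 8 target probe sets below the filter had 2 higher and 2 lower past 2-fold between genotypes at E11.5, and 3 and 1 at E12.5.

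**Figure D4:**
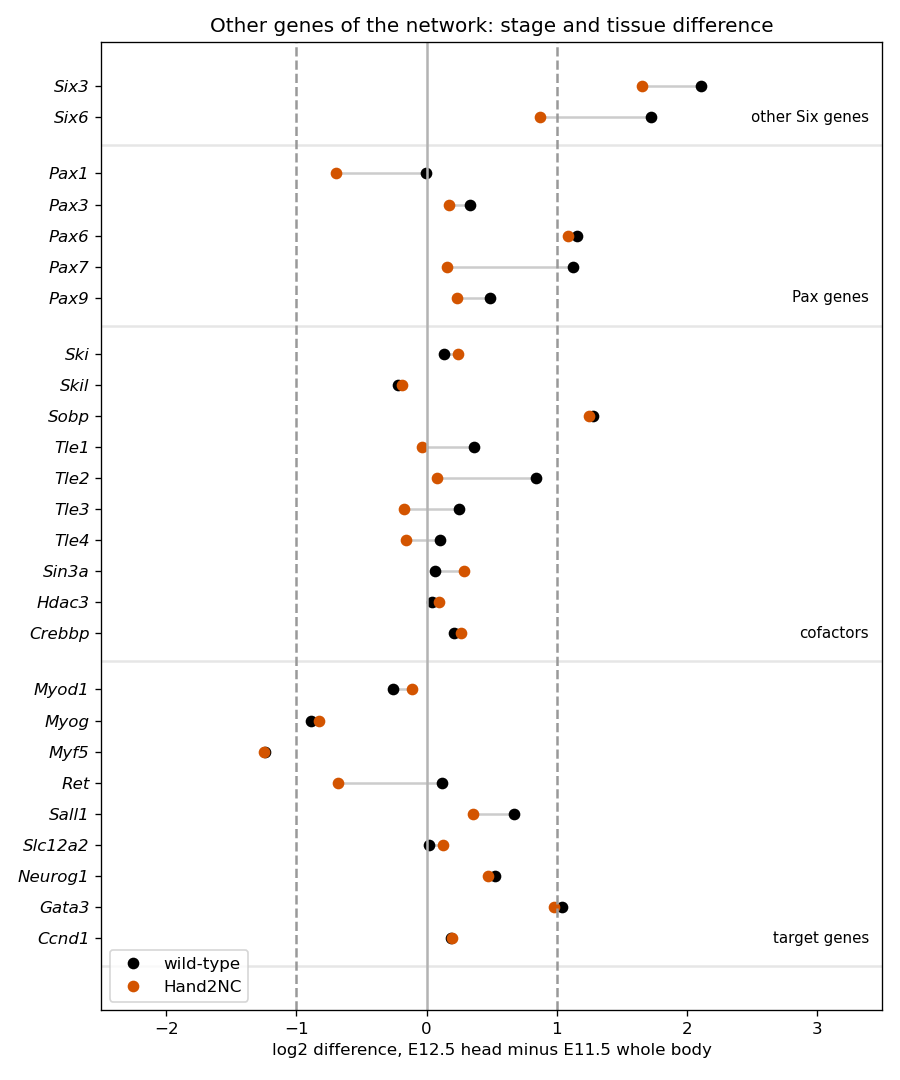
Log2 difference of E12.5 head from E11.5 whole body (horizontal axis) for the brightest probe set of each other network gene kept in both genotypes, grouped by list, with wild-type in black and *Hand2*NC in orange; dashed lines mark 2-fold. *Six3*, *Pax6* and *Sobp* lie past 2-fold in both genotypes on the higher side and *Myf5* on the lower side.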

How the data were processed

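Signals were measured on 4 one-colour arrays, 1 per condition, so that the number of arrays limits the precision and no test was made. The deposited values are linear intensity values, 1 per probe set, that the authors made with MAS5, as named in the submitters' processing notes without a version; the genome build behind the probe sets is not given in the sources used here. Of 45101 probe sets, 64 controls were left out. Signals were brought to a 2% trimmed mean of 500 on every array before log2. The platform annotation named a probe set where it gave 1 symbol. The brightest probe set of a gene, by mean log2 signal over the arrays, stands for it. The 2-fold cutoff follows the methods of the study.

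Members and lists were chosen with earlier results of these data known. The text names all members, *Hand2*, *Dmpk* and other network genes at least 2-fold different in a pair (at most 4 per list); *Xist*, *Eif2s3y* and cofactors under 2-fold were named after their values were seen. Some other genes of the network are not reported here. The counting was tested on simulated data. The 11 alternatives were deposited values unscaled, median centring, quantile normalisation, loess (span 0.3), dropping the filter, asking that both arrays reach the median, the 75th percentile as filter, dim values raised to the median, a pseudocount of 16, the mean over probe sets, and omitting cross-matching probe sets (_x_at, _s_at and _a_at). The software was numpy 2.4.6, pandas 2.3.3, statsmodels 0.14.6 and matplotlib 3.10.9 under Python 3.11.15.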

Additional observations from a re-analysis of the deposited data

Results flagged for a closer look

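On the brightest *Six4* probe set (1456862_at), *Hand2*NC was above wild-type at E11.5 and below it at E12.5, each time beyond the local spread, and the second log2 difference minus the first was -0.48. At E12.5 it passed the local spread only barely (-0.20 against 0.20), and the kept *Six4* probe set 1425767_a_at ran the other way, at -0.57 and then 0.13, a subtraction of 0.70. On *Pax7* (1444596_at) the same subtraction gave -0.96. With 1 array per condition, neither difference between the stages was tested.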

How the results depend on the processing

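No paired analysis was possible because each condition has 1 array. Without the filter on dim values, the counts of member probe sets at least 2-fold higher and lower became 2 and 1 between genotypes at E11.5, 0 and 1 at E12.5, 1 and 1 between stages in wild-type, and 1 and 2 in *Hand2*NC, from 0 throughout; all of these are dim probe sets. With quantile normalisation or loess, 1 member (*Six4* 1456862_at) was at least 2-fold lower between stages in *Hand2*NC. The other 111 recomputed counts and medians stayed within the set limits. Over the alternatives the members' median between genotypes ran from -0.11 to -0.03 at E11.5 and from -0.08 to -0.000547 at E12.5. Taking the mean over probe sets moved 12 gene values, among them *Dach1* at E11.5 to 1.25, *Six4* at E12.5 to -0.70, *Six4* between stages in wild-type to 0.08 and *Eya3* at E12.5 to 0.40; it gives no value for counts of probe sets. The other 369 gene values stayed within the local spread of their main value. Many could not move, because changing the filter leaves the difference of a single probe set as it is. The count is therefore no measure of robustness. Median centring shifted the median of all probe sets between stages in wild-type by -0.12 and turned the counts past 2-fold over all probe sets from 1133 higher and 561 lower to 821 and 731 (874 and 700 with loess); at E11.5 between genotypes it turned 103 and 81 to 82 and 99. The 7 members below the filter had local spreads of up to 2.99, so signal over background limits what they show.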
